A study of Mus musculus with 4 samples.

Results

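The MHC class I and peptide loading genes examined here were 10 mouse genes: the light chain B2m, the heavy chains H2-K1, H2-D1, H2-T23 and H2-M3, the class I-like Cd1d1, the peptide transporter genes Tap1 and Tap2, the loading factor Tapbp and the transactivator Nlrc5. They were read on every probe set that the platform table ties to 1 of these symbols alone. That gave 26 of 45101 probe sets for 9 of the 10 genes. H2-T23 was named on 2 probe sets, both of which the table shares with a second gene, so it has no value here. All 9 of the genes read were among the 12424 genes compared, through the 19 of their 26 probe sets that passed a filter on dim signals.

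The cells were gamma delta intraepithelial lymphocytes, T cells that live between the epithelial cells of the gut, sorted from the colon of conventionally raised C57b/6 mice. In the DSS group the mice drank 2% dextran sulfate sodium (DSS), which damages the lining of the colon, over 5 days, with 3 days of plain water to recover. The other group was untreated. Each group had 2 samples, each on 1 array read in 1 colour. The sources used here give neither the age of the mice nor whether a sample came from 1 animal or a pool. Each p-value is therefore set against a spread between samples that may be technical.

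MHC class I molecules show fragments of a cell's own proteins at its surface. The proteasome cuts the peptides, the TAP transporter carries them into the endoplasmic reticulum, and chaperones load them onto a heavy chain paired with beta-2 microglobulin. Nearly all nucleated cells make the classical chains, and interferon gamma raises most of the set through IRF1 and NLRC5. Class I-like molecules such as CD1d, which presents lipids, and Qa-1, the product of H2-T23, are read by innate-like T cells and by NK receptors that intraepithelial lymphocytes carry.

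A few facts of the arrays bear on all values below. Values are linear signals scaled by the authors to a common trimmed mean, with array medians of 157.1 and 163.3 in DSS samples and 193.8 and 213.9 in untreated samples. The pooled standard deviation between replicates was 0.521 in DSS and 0.82 in untreated samples on the log2(signal + 32) scale (n = 2 each). The bioB, bioC, bioD and cre hybridisation controls averaged 14372 and 15271 on the DSS arrays and 82269 and 59067 on the untreated arrays, so treatment and array handling cannot be told apart. The ratio of 3′ to 5′ control signals for Actb, a sign of RNA quality, was 16 and 10.6 on the DSS arrays and 14.7 and 23 on the untreated arrays, highest on untreated replicate 2. Across genes the untreated arrays were the least alike pair of the 4 arrays (r = 0.794) and the DSS arrays the most alike (r = 0.92). The labelled cell type's markers were bright in all samples. Their summed signal was 301877 and 312132 in DSS samples, against 512119 and 454671 in untreated samples. Of 16 tested, 2 were higher and 5 lower on both DSS arrays, beside 17.2% and 23.8% of all genes. The T cell receptor chain Cd3g, one of the higher pair, had 17026 and 13219 in DSS samples and 10949 and 12540 in untreated samples. Cd3e overlapped, with 10288 and 11548 in DSS samples and 7981 and 18964 in untreated samples. Itgae, Zap70, Gzmb, Cd8a and Trgv4 were the 5 lower genes, Itgae (CD103) with 43558 and 43518 in DSS samples and 101512 and 98460 in untreated samples. Among other probe sets that passed the filter, that of Itgae gave a log2 difference, DSS minus untreated, of 0.52. Those of Cd8a ran from -0.85 to 0.46. Those of Zap70 and Trgv4 were below 0, and Gzmb had no other. Markers of macrophages and dendritic cells were present as well, more so in DSS samples: 18 of 21 tested were higher on both DSS arrays. The summed signal of the 21 was 149184 and 182105 in DSS samples, against 48915 and 49032 in untreated samples. Tyrobp was lower on both DSS arrays, and Itgax and Fcer1g overlapped. Tyrobp was also the brightest of the 21 on both untreated arrays, with 18772 and 22951, against 18026 and 18428 in DSS samples. Of the markers that define these cells, Csf1r had 33267 and 40991 in DSS samples and 4342 and 1162 in untreated samples. C1qb had 12782 and 17363 in DSS samples and 1858 and 325 in untreated samples. Others were dim in untreated samples: C1qc had 478 and 641 in DSS samples and 51.8 and 10.8 in untreated samples, the second pair below the array medians. In bulk samples fewer cells of a type and less RNA per cell cannot be told apart.

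Of the 9 genes, Cd1d1, H2-K1, H2-D1 and Tap2 had both DSS arrays above both untreated arrays, and none had both below. Under quantile normalization H2-D1 no longer did. B2m, H2-M3, Tap1, Tapbp and Nlrc5 overlapped between the groups. Cd1d1 showed the largest difference of the 9 and was the only one at least 2-fold higher on each DSS array than on each untreated array. For comparison, 17.2% of all genes were higher on both DSS arrays and 23.8% lower. At least 2-fold apart in that sense were 2.18% of all genes toward higher and 2.38% toward lower, and 0 of the 9 genes were in the second class. The 9 genes had a median log2 difference of 0.10, against -0.07 for all genes, with 6 estimates above 0 and 3 below.

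None of these differences passed the test. Limma, with Benjamini-Hochberg adjustment over all 12424 genes at 0.05, called 0 of the 9 genes, as it called 0.0% of all genes in either direction. At an unadjusted p under 0.05 there were 2 of the 9, Cd1d1 and H2-K1, both higher in DSS samples. Of all genes 3.71% were higher and 3.81% lower at that level. Single differences below are therefore given as values with their errors.

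**Figure D1:**
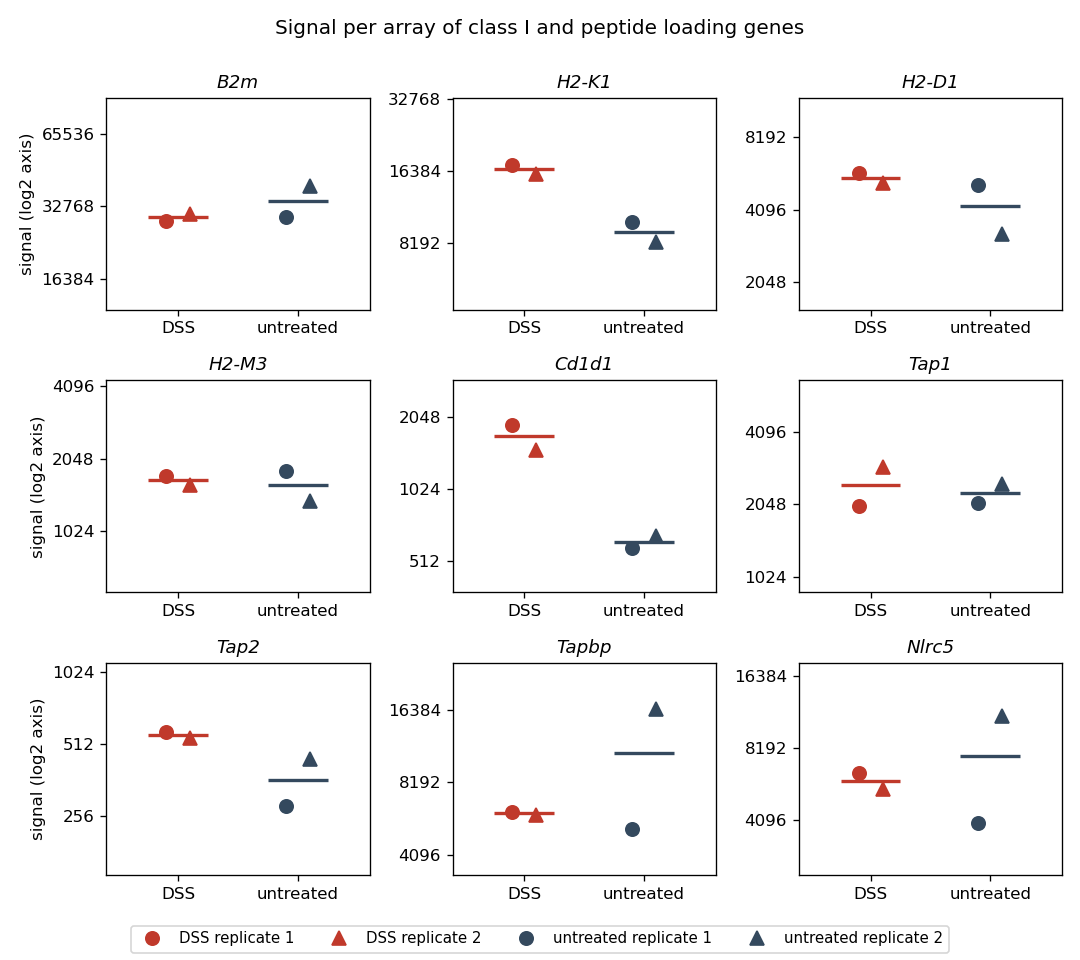
Signal of the probe set read for each of the 9 genes, on a log2 axis that spans the same ratio in every panel. Circles and triangles are replicates 1 and 2, and lines are group means. The DSS arrays lie above both untreated arrays for H2-K1, H2-D1, Cd1d1 and Tap2, while the untreated arrays lie far apart for Tapbp and Nlrc5.

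Cd1d1 encodes CD1d, the lipid-presenting molecule recognised by NKT cells. It had signals of 1895 and 1490 in DSS samples, against 582 and 652 in untreated samples. The groups were well apart, with a gap wider than the spread within either. The log2 difference was 1.40 ± 0.39 (SE, n = 2 per group; limma adjusted p = 0.649), above that of 96.3% of all genes. A second probe set, whose name ending marks it as able to bind related transcripts, gave 684 and 581 in DSS samples and 277 and 119 in untreated samples, and a log2 difference of 1.62 ± 0.53. Both probe sets placed the groups in the same order. Macrophages and dendritic cells also express Cd1d1, and most of their markers were higher in the same DSS samples, with the summed signals given above. Their part in the Cd1d1 difference was not tested. Limma called Cd1d1 when either untreated array was left out, with an adjusted p of 0.0146 without untreated replicate 1 and 0.0144 without untreated replicate 2. Those fits called 14.4% and 6.08% of all genes.

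H2-K1 and H2-D1 encode the classical heavy chains that present peptides to CD8 T cells. They are alike enough in sequence that array probes for one can bind the other. Of their 13 probe sets 11 end in _x_at, which marks probes shared with other transcripts, and the table assigns further probe sets to both or to other H2 genes. Values below may therefore be sums over an unknown mix of class I transcripts, which was not tested.

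The likeness extends to their promoters, which are shown because they carry the elements through which interferon and NLRC5 are known to act on class I genes. Capitals mark matches, on either strand, to an IRF core (AANNGAAA), a kB site (GGGNNTTCC), a CRE-like X2 core (TGACG) and a Y box (CCAAT). The matches do not overlap one another. Sequences are from RefSeq, build GRCm38.p6, written 5′ to 3′ on the gene's strand. They lie at chr17:34000349-34000468 on the minus strand for H2-K1, and on the plus strand at chr17:35262913-35263032 for H2-D1, chr17:37270095-37270227 for H2-M3 and chr2:122147540-122147648 for B2m, in each case upstream of the annotated start.
H2-K1: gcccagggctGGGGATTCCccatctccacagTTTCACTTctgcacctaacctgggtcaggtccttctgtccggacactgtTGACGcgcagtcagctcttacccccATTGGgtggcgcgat
H2-D1: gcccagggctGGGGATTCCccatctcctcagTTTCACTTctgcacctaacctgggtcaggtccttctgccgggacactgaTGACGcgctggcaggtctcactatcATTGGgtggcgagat
H2-M3: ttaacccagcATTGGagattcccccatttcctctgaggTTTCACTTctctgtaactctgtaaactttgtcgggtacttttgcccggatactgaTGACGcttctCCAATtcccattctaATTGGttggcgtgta
B2m: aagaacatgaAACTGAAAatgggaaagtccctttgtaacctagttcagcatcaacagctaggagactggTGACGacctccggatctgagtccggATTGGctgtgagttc

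The H2-K1 and H2-D1 stretches were identical at 108 of 120 bases, with all 4 motifs in the same order and spacing. The table held promoters for 7 of the 10 genes, and the 250 bases upstream of the first listed start were searched. An IRF core was found in 5 of the 7 and in 21.3% of all 32851 promoters in the table, an X2 core in 5 and 17.8%, a Y box in 7 and 33.8%, and a kB site in 2 and 4.98%. The IRF core, X2 core and Y box occurred together in the 4 promoters printed, against 1.08% of all promoters. All 4 motifs occurred in H2-K1 and H2-D1, against 0.1% of all. These are matches of letters and not measured binding sites, and their part in the signals was not tested. On the probe sets read, H2-K1 and, only narrowly, H2-D1 were higher on both DSS arrays, and H2-M3 and B2m overlapped between groups. The H2-K1 and H2-D1 values may draw on the same transcripts.

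H2-K1, read on its brightest probe set, had 17400 and 15943 in DSS samples, against 10058 and 8262 in untreated samples. Both DSS arrays stood clear of both untreated arrays. The log2 difference was 0.87 ± 0.36 (SE, n = 2 per group; limma adjusted p = 0.649), above that of 89.9% of all genes. Of the other 3 probe sets, 2 gave log2 differences of 0.48 ± 0.36 and 0.77 ± 0.44, again with both DSS arrays on top. The dimmest had 981 and 725 in DSS samples and 918 and 876 in untreated samples, so its groups overlapped. Without each array in turn, the H2-K1 log2 difference ran from 0.73 to 1.01, the highest without untreated replicate 1. Most macrophage and dendritic cell markers were higher in the same DSS samples, and the part of those cells in this difference was not tested.

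H2-D1 had 5818 and 5261 in DSS samples, against 5205 and 3239 in untreated samples on its brightest probe set. The groups only just failed to overlap, since DSS replicate 2 and untreated replicate 1 were nearly level. The log2 difference was 0.43 ± 0.40 (SE, n = 2 per group; limma adjusted p = 0.771), and it was 0.09 without untreated replicate 2. Of the 9 H2-D1 probe sets 6 passed the filter, with log2 differences of 0.05 to 0.74. On 2 of these 6 both DSS arrays were higher. The second of these had 3457 and 2910 in DSS samples and 1962 and 1949 in untreated samples, a wide gap. The one bright H2-D1 probe set without a shared-probe ending had 2402 and 2097 in DSS samples and 2342 and 1349 in untreated samples, so its groups overlapped. The 3 dim probe sets ranged from -0.45 to 0.36. On all 10 H2-K1 and H2-D1 probe sets that passed the filter, untreated replicate 1 was brighter than untreated replicate 2.

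**Figure D2:**
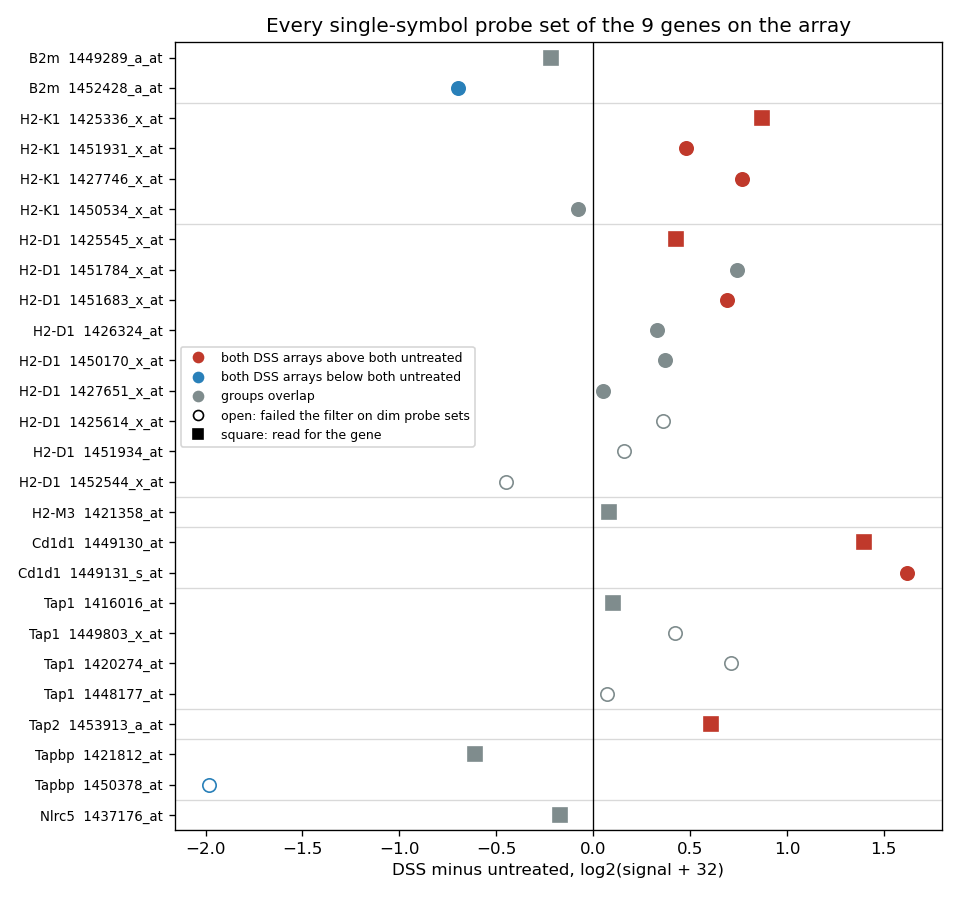
Log2 difference, DSS minus untreated, of each of the 26 probe sets. Squares are the probe sets read for a gene, open symbols failed the filter on dim signals, and colour shows whether both DSS arrays were above or below both untreated arrays. Both Cd1d1 probe sets and 5 of the 10 H2-K1 and H2-D1 probe sets that passed the filter were higher on both DSS arrays. Lower on both were 1 B2m probe set and 1 Tapbp probe set that failed the filter. Of all genes, each read on 1 probe set, 17.2% were higher and 23.8% lower.

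B2m encodes beta-2 microglobulin, the light chain that every classical class I molecule needs at the surface. It was among the brightest genes, above 99.1% of genes in mean signal, with 28461 and 30381 in DSS samples and 29507 and 39686 in untreated samples. The groups overlapped. The log2 difference was -0.22 ± 0.36 (SE, n = 2 per group; limma adjusted p = 0.87), and its sign depended on the scaling, with 0.14 under quantile normalization and 0.13 under a common median. Without untreated replicate 1 it was -0.43. The second B2m probe set had 4912 and 5307 in DSS samples and 8625 and 8008 in untreated samples. There both DSS arrays were lower, with a log2 difference of -0.70 ± 0.36. The light chain probe sets therefore ordered the arrays otherwise than the brightest heavy chain probe sets, and the difference between them was not tested.

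H2-M3 encodes a non-classical chain that presents formylated peptides, such as those of bacteria. It had 1742 and 1591 in DSS samples and 1818 and 1361 in untreated samples. The DSS arrays lay between the untreated arrays, with a log2 difference of 0.08 ± 0.39, and the estimate was -0.12 without untreated replicate 2.

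Tap1 and Tap2 encode the partner subunits of the peptide transporter. Tap1 had 2017 and 2936 in DSS samples and 2073 and 2487 in untreated samples on the 1 of its 4 probe sets that passed the filter. The groups overlapped, with a log2 difference of 0.10 ± 0.40, which was -0.02 under quantile normalization, -0.17 without DSS replicate 2 and -0.03 without untreated replicate 1. Tap2 had 575 and 541 in DSS samples, against 281 and 444 in untreated samples. Both DSS arrays were higher and close together, while the untreated arrays were further apart. Its log2 difference was 0.61 ± 0.44 (SE, n = 2 per group; limma adjusted p = 0.715), and 0.31 without untreated replicate 1.

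Tapbp encodes tapasin, which bridges TAP and the empty heavy chain. It had 6147 and 6008 in DSS samples and 5233 and 16490 in untreated samples. The DSS arrays agreed closely and lay between untreated arrays that differed by 1.65 on the log2 scale. The log2 difference of -0.61 ± 0.57 (SE, n = 2 per group; limma adjusted p = 0.764) rested on 1 array: it was -1.44 without untreated replicate 1 and 0.21 without untreated replicate 2. A second, dim probe set had 18.9 and 46.4 in DSS samples and 157 and 297 in untreated samples. Both DSS arrays were lower there, at a log2 difference of -1.98. This probe set exceeded the array median on 1 array and did not pass the filter.

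Nlrc5 encodes the transactivator that assembles on class I promoters. It had 6432 and 5509 in DSS samples and 4003 and 11160 in untreated samples. As with Tapbp, untreated replicate 2 was the brightest array, untreated replicate 1 the dimmest, and the DSS arrays lay between. Untreated replicate 2 was also the array with the highest Actb ratio, whose part in these values was not tested. The log2 difference was -0.17 ± 0.53 (SE, n = 2 per group; limma adjusted p = 0.938). It was -0.90 without untreated replicate 1, 0.57 without untreated replicate 2 and 0.18 after scaling to a common median.

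**Figure D3:**
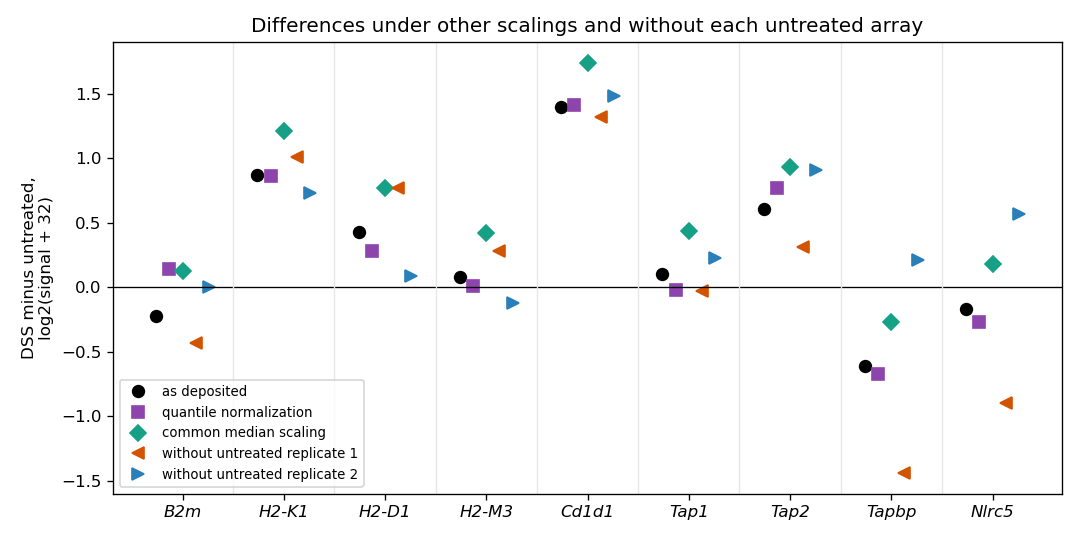
Log2 difference, DSS minus untreated, of each gene as deposited, under the other 2 scalings, and without each untreated array. Cd1d1, H2-K1, H2-D1 and Tap2 stay above 0 in all 5 settings plotted, whereas Tapbp spans -1.44 to 0.21 and Nlrc5 -0.90 to 0.57.

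The other genes of the pathway were read from lists of class I-like chains, peptide generation, loading chaperones, regulators and receptors. Limma called 0 genes in each of these 5 lists. Their counts below stand beside the 17.2% of all genes that were higher and the 23.8% that were lower on both DSS arrays. Among 11 peptide generation genes 4 were higher and 3 lower on both DSS arrays, with a median log2 difference of -0.15. Erap1, the endoplasmic reticulum aminopeptidase that trims peptides to fit class I, had 726 and 738 in DSS samples and 302 and 285 in untreated samples. These groups were far apart, and the log2 difference was 1.23 ± 0.41 (SE, n = 2 per group; limma adjusted p = 0.649), with 0.67 on its other probe set. The immunoproteasome subunits, which replace constitutive subunits under interferon gamma, were split on the probe sets read. Psmb10 had 3789 and 4450 in DSS samples and 2439 and 2600 in untreated samples, and Psmb9 had 2606 and 2768 in DSS samples and 2049 and 1720 in untreated samples, both higher on both DSS arrays. Psmb8 had 4435 and 4406 in DSS samples and 5998 and 15917 in untreated samples. Both DSS arrays were lower on this probe set, with untreated replicate 2 far above the rest as for Tapbp and Nlrc5. This probe set ends in _x_at, so its signal may include other transcripts. The other Psmb8 probe set gave a log2 difference of 0.56. Psmb9, Tap1, Psmb8 and Tap2 are consecutive entries in the RefSeq gene table. On the probe sets read, these neighbours did not share the same order of the arrays.

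Among 10 genes of loading and quality control 4 were higher and 1 lower on both DSS arrays, with a median log2 difference of 0.41. Pdia3 (ERp57), the oxidoreductase of the loading complex, had 747 and 590 in DSS samples and 238 and 186 in untreated samples. The groups were well separated on this probe set, at 1.52 ± 0.44 on the log2 scale (SE, n = 2 per group; limma adjusted p = 0.649), but the other Pdia3 probe set gave 0.18. The lectin chaperone Canx, which holds new heavy chains, had 11982 and 12388 in DSS samples and 6940 and 8541 in untreated samples, while its other probe sets gave log2 differences of -0.38 and 1.98. Hspa5 (BiP), the general chaperone of the endoplasmic reticulum, had 18502 and 22534 in DSS samples and 18355 and 1786 in untreated samples, so that its log2 difference of 1.82 ± 0.96 came with untreated arrays far apart, and its other probe sets ran from -0.17 to 1.83. Calr, the soluble lectin chaperone of the loading complex, had 10808 and 7294 in DSS samples and 5351 and 11780 in untreated samples, and overlapped.

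Among 18 regulators 3 were higher and 4 lower on both DSS arrays, with a median log2 difference of -0.14. Irf1, the interferon-induced factor that acts on class I promoters, had 4339 and 4764 in DSS samples and 4610 and 8246 in untreated samples. The groups overlapped, at -0.44 ± 0.42. The kinase Jak2 had 6347 and 7160 in DSS samples and 4485 and 4504 in untreated samples, a log2 difference of 0.58 ± 0.36, with 1.76 on its other probe set. Irf8, which myeloid cells use, differed by 0.64 ± 0.41, with -0.06 on its other probe set. Nfya, a subunit of the factor that binds Y boxes, differed by -0.84 ± 0.56, with 0.20 on its other probe set.

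Among 10 other class I and class I-like chains, most of them dim, 2 were higher and 2 lower on both DSS arrays, with a median of 0.05. Hfe, the class I-like regulator of iron uptake, had 707 and 761 in DSS samples and 55.0 and 490 in untreated samples, which differ by 1.85 ± 0.81 on the log2 scale. H2-T3 had 335 and 344 in DSS samples and 621 and 614 in untreated samples. It encodes a heavy chain of the thymus leukaemia antigen, which intestinal epithelium displays and CD8 alpha homodimers bind. It was lower on both DSS arrays, with a log2 difference of -0.81 ± 0.41. The only H2-T3 probe set that passed the filter ends in _x_at, so its signal may include other transcripts. Procr, the endothelial protein C receptor, differed by 1.63 ± 1.03, with untreated signals of 6.90 and 162 against DSS signals of 232 and 243. Both untreated signals were below the array medians, so Procr passed the filter only through the DSS arrays.

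Among 10 receptors that read class I molecules 3 were higher and 3 lower on both DSS arrays, with a median of 0.12. Klrc1 encodes the NKG2A chain of the receptor for Qa-1. It had 910 and 1544 in DSS samples and 179 and 159 in untreated samples. The log2 difference was 2.60 ± 0.45 (SE, n = 2 per group, limma adjusted p = 0.382). Both untreated signals were below the array medians, so Klrc1 passed the filter only through the DSS arrays. Its partner chain gene Klrd1 was lower on both DSS arrays, at 35604 and 33449 in DSS samples and 42798 and 51782 in untreated samples. Cd8b1 encodes the beta chain of the coreceptor that binds classical class I. It had 137 and 98.6 in DSS samples and 722 and 727 in untreated samples. The log2 difference was -2.35 ± 0.47 (limma adjusted p = 0.503). Here both DSS signals were below the array medians, so Cd8b1 passed the filter only through the untreated arrays. Klra7, a Ly49 receptor of class I from a family with near-identical members, differed by 1.5 ± 0.44. Klrc1, Cd8b1 and Klra7 were named for having the smallest limma p of the 10, so large estimates in either direction follow from that choice. They are therefore not set against the classical chains.

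**Figure D4:**
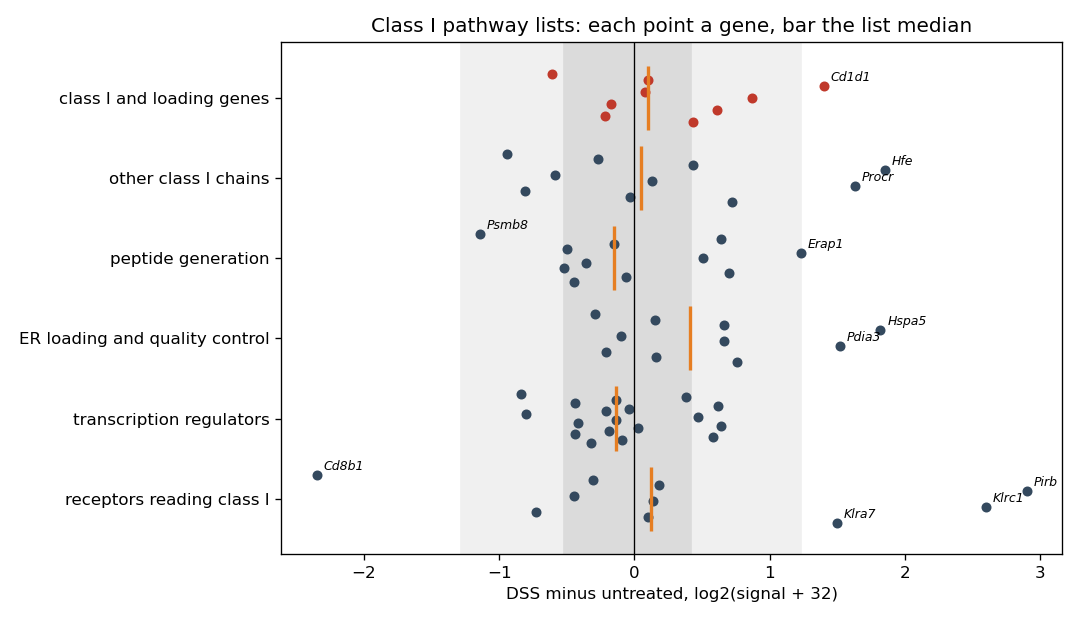
Log2 difference, DSS minus untreated, of each tested gene in the class I lists, with the list median as an orange bar. The darker band holds the interquartile range of all 12424 genes (-0.52 to 0.42) and the lighter band their outer range without the lowest and highest twentieth (-1.28 to 1.23). List medians lie between -0.15 and 0.41, and genes beyond 1 in either direction are named.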

How the data were processed

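RNA of 4 sorted samples was isolated, amplified and labelled with biotin with PicoPure and RiboAmp HS kits, per the labels' protocols. The deposited values are linear intensities, 1 per probe set and array, made by the authors with GCOS, per the submitters' processing notes. Its version and settings are not given here. Each array's signals average 500.0 after dropping the lowest and highest 2%. No detection calls were used. Precision is limited by the number of arrays.

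A platform table gave 34945 probe sets 1 gene symbol, 932 several and 9160 none, besides 64 control probe sets. Signals were analysed as log2(signal + 32), which understates differences of dim genes. Probe sets above the median of their array on at least 2 arrays passed the filter, and the one of highest mean was read for a gene. DSS samples were set against untreated samples in R 4.3.3 with limma 3.58.1 (lmFit, eBayes with an intensity trend, two-sided), with Benjamini-Hochberg adjustment over all genes. The step was tested on simulated data. Alternatives changed the scaling, the pseudocount, the dim filter, the choice of probe set and the variance model, added a replicate block, or left out each array. Leaving out arrays for counts of non-overlapping genes was added after seeing the data.

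The genes and lists were chosen with earlier results of these data known. From each class I list at most the 3 genes with the smallest limma p were named, together with the immunoproteasome genes, Irf1 and the loading chaperone genes and the defining cell markers. Klrd1, Cd8a, Gzmb, Itgae, Zap70, Trgv4 and C1qc were named after their values were seen. Markers of other cells were also counted. Of the tested neutrophil markers 1 of 8 was higher on both DSS arrays and 2 lower, and of the epithelial markers 4 of 14 and 2. Of the B cell markers the counts were 0 of 6 and 0, and of the stromal and endothelial markers 0 of 5 and 0. These stand beside 17.2% of all genes higher and 23.8% lower.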

Additional observations from a re-analysis of the deposited data

How the results depend on the processing

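Limma called 0 of the 9 genes under each alternative that kept both untreated arrays. The fits without 1 untreated array called some of the 9 genes. In such fits the lone untreated array is assumed to vary like the DSS arrays. Over all genes the count was 0 in the main analysis, 1 with the filter met on all arrays, 3 with a gene's probe sets averaged, and 0 to 1791 without each array. The labels number the replicates alike, but same-numbered arrays shared only a number (correlation of their deviations 0.0522). With that number as a block limma called 67 genes and 0 of these 9.

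Cd1d1, H2-K1, H2-D1 and Tap2 kept their direction in each alternative that gave a value. Without each array in turn, Cd1d1 ran from 1.23 to 1.57, H2-K1 from 0.73 to 1.01, H2-D1 from 0.09 to 0.77, Tap2 from 0.31 to 0.91, B2m from -0.43 to 0.00, H2-M3 from -0.12 to 0.28, Tap1 from -0.17 to 0.37, Tapbp from -1.44 to 0.21 and Nlrc5 from -0.90 to 0.57. Other scalings turned B2m (0.14 by quantiles, 0.13 by common median), Tap1 (-0.02 by quantiles) and Nlrc5 (0.18 by common median). Common median scaling moved the median of all genes from -0.07 to 0.25. Relative to that median B2m was at -0.13 and Nlrc5 at -0.08, whereas under quantile normalization B2m was at 0.12 relative to the median of all genes. The cause was not tested.

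The count of genes higher on every DSS array was 4, and 3 after quantile normalization (without H2-D1). It was 6 with a common median, 3 with probe sets averaged and 4 to 6 without each array. With probe sets ending in _x_at, _s_at or _a_at left out, it was 1 of the 6 genes that still had a value. The H2-K1 probe sets end in _x_at and those of B2m and Tap2 in _a_at, so these genes gave none. The count lower on every DSS array was 0, 1 (B2m) with probe sets averaged or taken singly, and 0 to 3 without each array: B2m, Nlrc5 and Tapbp without untreated replicate 1, B2m and Tap1 without DSS replicate 2, and H2-M3 without untreated replicate 2. At least 2-fold lower were 0, and 0 to 1 without each array (Tapbp, without untreated replicate 1). The shares of all genes given above belong to the main analysis, and shares under these other settings are not given here. Groups of 2 and 1 arrays also separate more readily than groups of 2 and 2.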
